A study of Mus musculus with 10 samples.

Results

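Chemokine receptors are cell-surface receptors that steer leukocytes along gradients of secreted chemokines. Transcripts of 8 of their genes, Ccr2, Ccr4, Ccr7, Ccr8, Ccr9, Cxcr3, Cxcr4 and Cxcr6, were followed through 5 groups of sorted naive mouse T cells. They were taken by symbol from a table of 34573 genes, and all 8 had a row and passed the filter on low counts, which left 12193 genes. Ccr8 passed it through the WT CD4 libraries alone.

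T cells from the spleens of 6-week-old mice were gated as TCRb-positive, CD25-negative and CD44-negative, among other markers of the gate, and divided by CD4 and CD8. The wild-type (WT) groups were WT CD4, single-positive for CD4, and WT CD8, single-positive for CD8. Mice homozygous for OB11 (genotype OB11/OB11) gave cells with high CD4 (CD4hi), with both coreceptors (DP) and with low CD4 (CD4lo). Each group had 2 RNA-seq libraries, 10 in all. The series title concerns an autoregulatory loop of ThPOK, the factor encoded by Zbtb7b that maintains the CD4 lineage. The labels do not describe the OB11 change, and nothing in them says that the libraries of a group came from separate animals, so p-values measure only the spread between these libraries.

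Chemokine receptors span the membrane 7 times and signal through inhibitory G proteins to the machinery of adhesion and movement. Naive T cells are known for CCR7, which brings them into lymph nodes, and for CXCR4, the receptor of CXCL12. CCR9 answers to CCL25 of thymus and small intestine. CXCR3, CXCR6 and CCR2 mark effector and memory T cells and innate-like lymphocytes that enter inflamed tissue, and CCR4 and CCR8 are found on Th2 cells and regulatory T cells.

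Ccr9, Cxcr3 and Cxcr6 were lowest in WT CD4 cells and passed the test described below as higher in each of the other groups. Their promoters are shown for this reason. Ccr2 and Cxcr4 were also lowest in WT CD4 but did not pass in every other group. The windows run from 250 bases before to 50 bases after the start of transcription in RefSeq (build GRCm38.p6), 5′ to 3′ on the strand of the gene. Ccr9 lies at chr9:123766961-123767260 (plus strand), Cxcr3 at chrX:101734098-101734397 (minus strand) and Cxcr6 at chr9:123806227-123806526 (plus strand). Capitals mark the letters of the motifs searched on both strands.
Ccr9: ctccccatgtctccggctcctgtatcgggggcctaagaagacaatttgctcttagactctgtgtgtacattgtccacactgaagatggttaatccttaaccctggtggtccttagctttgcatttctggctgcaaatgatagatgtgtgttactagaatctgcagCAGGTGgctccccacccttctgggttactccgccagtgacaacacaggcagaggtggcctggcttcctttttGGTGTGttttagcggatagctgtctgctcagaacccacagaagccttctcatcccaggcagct
Cxcr3: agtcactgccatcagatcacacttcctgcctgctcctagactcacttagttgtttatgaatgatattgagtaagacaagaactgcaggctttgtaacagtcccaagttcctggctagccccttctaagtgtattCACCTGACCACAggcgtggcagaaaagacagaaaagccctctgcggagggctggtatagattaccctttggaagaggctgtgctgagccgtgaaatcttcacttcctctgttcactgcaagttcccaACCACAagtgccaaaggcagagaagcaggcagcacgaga
Cxcr6: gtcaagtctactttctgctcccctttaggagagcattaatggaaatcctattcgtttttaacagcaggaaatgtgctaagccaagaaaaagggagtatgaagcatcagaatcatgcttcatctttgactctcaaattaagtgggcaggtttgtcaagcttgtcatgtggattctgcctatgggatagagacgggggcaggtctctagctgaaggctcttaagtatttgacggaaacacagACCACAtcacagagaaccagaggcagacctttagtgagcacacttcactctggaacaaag
The RUNX letters TGTGGT occurred 2 times in the Cxcr3 window and 1 time in that of Cxcr6, and 16.9% of 27025 mouse promoter windows hold them. The E-box letters CAGNTG occurred 1 time each in the Ccr9 and Cxcr3 windows (51.1% of all windows), and the T-box letters GGTGTG 1 time in that of Ccr9 (19.0%). No marked match overlaps another. GATA letters (AGATAA, 11.4%) and ETS letters (ACCGGAA, 3.8%) were not in these 3 windows. Among the other members, Ccr2 and Ccr8 each held 1 GATA match, Ccr4 held 1 E-box match, and the Cxcr4 window held none of the motifs. These are matches of letters only. A window was given for 7 of the 8 members, and Ccr7 had none.

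Library totals ran from 5055956 to 7417789 counts. Cd3e, a chain of the T cell receptor complex, stood at 441 to 571 CPM (counts scaled to library size with TMM factors) in all 10 libraries. Zbtb7b had 151 ± 9.31 CPM (mean ± SD, n = 2 here and below) in WT CD4 and 2.84 ± 0.170 in WT CD8. The OB11 groups had 27.8 ± 0.148 CPM of it (CD4hi), 7.05 and 9.18 (DP), and 9.38 and 8.62 (CD4lo). An L of unstated meaning stands in 4 titles, those of CD4lo and WT CD4. CD4lo against WT CD4, DP against CD4hi, and CD4hi and DP against WT CD8 compare libraries alike in this L. In 6 comparisons the L differs, so there it and the sorted population cannot be told apart. In bulk samples, a larger share of cells with a transcript and more transcript per cell cannot be told apart either.

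**Figure D1:**
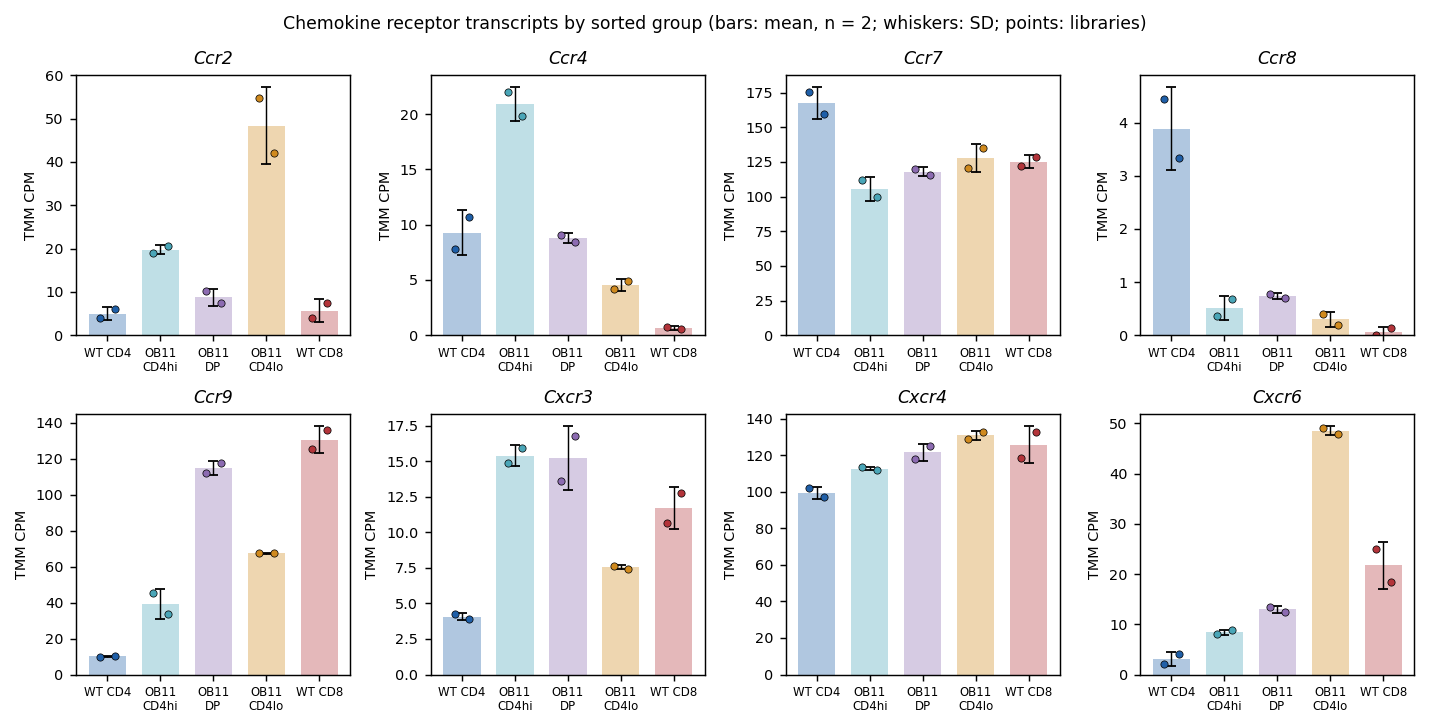
Level of each receptor transcript (TMM CPM, linear axes from 0) in the 5 groups. Bars are means, whiskers SD (n = 2) and points single libraries. The Ccr9 points of WT CD4 lie near 10 CPM and those of WT CD8 at 125 and 136 CPM, while both Cxcr6 and Ccr2 are highest in CD4lo.

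All pairs of groups were compared, 10 comparisons in one edgeR quasi-likelihood fit, with p adjusted by Benjamini-Hochberg over all tested genes and a threshold of 0.05. Changes are log2 fold changes ± SE. The 4 comparisons with WT CD4 share its 2 libraries, so their directions are not independent. Against WT CD4, 7 of the 8 receptor genes passed in CD4hi cells, where 16.8% of all genes did. Of these 5 were higher (10.4% of all genes) and 2 lower (6.43%). These counts include Ccr8, which entered the table of tested genes through WT CD4 alone and so had to differ from it. In DP cells 6 of 8 passed (19.1% of all genes), 4 higher (11.1%) and 2 lower (8.06%). In CD4lo cells 8 of 8 passed (15.8% of all genes), 5 higher (8.82%) and 3 lower (7.02%), and 4 passed without CD4lo 1. In WT CD8 cells 7 of 8 passed (21.7% of all genes), 4 higher (11.1%) and 3 lower (10.6%). Without Ccr8, 6 of 7 passed in CD4hi (5 higher, 1 lower), 5 in DP (4 and 1), 7 in CD4lo (5 and 2) and 6 in WT CD8 (4 and 2). The median change of the 8 genes was 1.28 (CD4hi), 0.54 (DP), 0.64 (CD4lo) and 0.29 (WT CD8), and 1.40, 0.79, 0.89 and 0.34 in that order without Ccr8, beside all-gene medians of 0.0045, -0.0090, -0.016 and -0.027.

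**Figure D2:**
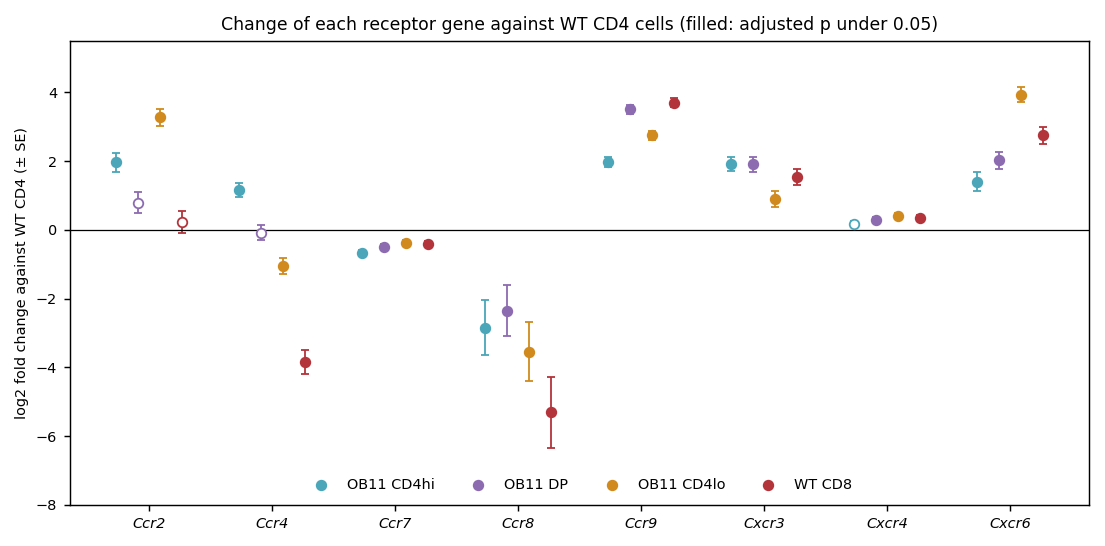
Log2 fold change (± SE) of each receptor gene against WT CD4 in the 3 OB11 groups and WT CD8. Filled points have an edgeR adjusted p under 0.05, which for Ccr8 is no support, since it was tested only because of WT CD4. Ccr9, Cxcr3 and Cxcr6 lie above 0 with filled points in all 4 groups. Ccr2 and Cxcr4 also lie above 0 in all 4 groups, but not all of their points are filled. Ccr7 and Ccr8 lie below 0, and Ccr4 runs from 1.16 in CD4hi to -3.83 in WT CD8.

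Ccr9, the receptor of CCL25 that directs T cells to the small intestine, was lowest in WT CD4 and highest in WT CD8 cells. The 2 WT CD4 libraries had 9.77 and 10.3 CPM, CD4hi 45.1 and 33.4, CD4lo 67.3 and 67.6, DP 112 and 118, and WT CD8 125 and 136. No 2 groups overlapped. Depending on the comparison, 41.8% to 59.7% of all tested genes did not overlap either, and the same shares apply to the overlaps given for the genes below. Ccr9 rose against WT CD4 by 1.96 ± 0.15 in CD4hi (edgeR adjusted p = 3.18e-07), 2.74 ± 0.14 in CD4lo (4.32e-09), 3.51 ± 0.13 in DP (1.69e-10) and 3.70 ± 0.13 in WT CD8 (5.01e-11). Each step up that order passed the test except the last, from DP to WT CD8, where the difference was 0.19 ± 0.10 (adjusted p = 0.345). DP cells exceeded CD4hi cells by 1.55 ± 0.11 (adjusted p = 2.01e-06) in libraries alike in the title mark. The Ccr9 calls held in all the settings tried.

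Cxcr6, the receptor of CXCL16, followed another order. It had 2.13 and 4.03 CPM in WT CD4, 8.05 and 8.81 in CD4hi, 13.5 and 12.4 in DP, 25.0 and 18.4 in WT CD8, and 49.2 and 48.0 in CD4lo. CD4lo stood above every other group and WT CD4 below, with no overlap between neighbours. In these comparisons of neighbours, 41.8% to 54.5% of all genes did not overlap either. Against WT CD4 the change was 1.40 ± 0.28 in CD4hi (edgeR adjusted p = 0.00256), 2.02 ± 0.25 in DP (4.86e-05), 2.75 ± 0.24 in WT CD8 (9.15e-07) and 3.93 ± 0.22 in CD4lo (1.23e-08). CD4lo also exceeded WT CD8, by 1.18 ± 0.17 (adjusted p = 0.000378). The libraries of CD4hi and DP lay apart, but the change of 0.62 ± 0.22 in favour of DP did not pass (edgeR adjusted p = 0.264). WT CD8 exceeded DP by 0.73 ± 0.19 (adjusted p = 0.0296), a call lost without DP 1 (0.0934), DP 2 (0.178) or WT CD8 1 (0.284) and with DESeq2 (0.0985).

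Cxcr3, the receptor of the interferon-induced chemokines CXCL9, CXCL10 and CXCL11, was highest in CD4hi and DP. Its libraries had 4.26 and 3.89 CPM in WT CD4, 7.64 and 7.44 in CD4lo, 10.7 and 12.8 in WT CD8, 13.6 and 16.8 in DP, and 14.9 and 15.9 in CD4hi. Only CD4hi and DP overlapped. No OB11 group differed from WT CD8 by the test, with 0.38 ± 0.18 in CD4hi (edgeR adjusted p = 0.235), 0.37 ± 0.18 in DP (0.294) and -0.64 ± 0.20 in CD4lo (0.0839). The rise over WT CD4 was 1.92 ± 0.21 in CD4hi (edgeR adjusted p = 1.90e-05), 1.90 ± 0.21 in DP (1.56e-05), 1.54 ± 0.22 in WT CD8 (0.000124) and 0.89 ± 0.23 in CD4lo (0.0169). The CD4lo call was lost without WT CD4 2 (0.0946) or CD4lo 1 (0.0766), with DESeq2 (0.111) and in a fit of the 4 libraries alone (0.0871). CD4lo cells were lower than CD4hi by -1.03 ± 0.19 (adjusted p = 0.00409) and lower than DP by -1.01 ± 0.19 (0.00418), the latter not without DP 2 (-0.83, adjusted p = 0.0837). CD4lo cells had the highest level of Cxcr6 but the lowest of Cxcr3 among the OB11 groups.

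Ccr2, the receptor of CCL2 known from monocytes and effector T cells, was raised in CD4lo and CD4hi. It had 54.7 and 42.1 CPM in CD4lo, 19.0 and 20.5 in CD4hi, 10.2 and 7.34 in DP, 3.88 and 7.53 in WT CD8, and 3.91 and 5.97 in WT CD4. The CD4lo and CD4hi libraries lay apart from all others, and the remaining neighbours overlapped. Against WT CD4 Ccr2 rose by 3.27 ± 0.25 in CD4lo (edgeR adjusted p = 3.47e-07) and 1.97 ± 0.27 in CD4hi (0.000144). The changes of 0.79 ± 0.30 in DP (0.0820) and 0.24 ± 0.32 in WT CD8 (0.647) did not pass, although DP passed without WT CD4 2 (1.15, adjusted p = 0.0473) and with no filter on low counts (0.84, 0.00817). CD4lo exceeded WT CD8 by 3.03 ± 0.24 and CD4hi exceeded it by 1.73 ± 0.26 (adjusted p = 1.74e-06 and 0.000478), values that became 3.64 and 2.33 without WT CD8 2.

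Ccr4, the receptor of CCL17 and CCL22, went up in one OB11 group and down in another. CD4hi had 22.0 and 19.8 CPM, WT CD4 7.82 and 10.7, DP 9.09 and 8.47, CD4lo 4.15 and 4.90, and WT CD8 0.776 and 0.538. WT CD4 and DP overlapped and the other neighbours did not. CD4hi rose over WT CD4 by 1.16 ± 0.20 (edgeR adjusted p = 0.00102), DP stood at -0.09 ± 0.22 (0.813), and CD4lo fell by 1.06 (SE 0.24, adjusted p = 0.00737). WT CD8 was lower by -3.83 ± 0.35 (adjusted p = 1.51e-06), with 4 counts in each library. The CD4lo call against WT CD4 was lost without WT CD4 2 (0.0889) or CD4lo 1 (0.0781), with DESeq2 (0.0614) and in a fit of the 4 libraries (0.0547). CD4lo was lower than CD4hi by -2.22 ± 0.23 (adjusted p = 1.57e-05), a call that held in all the settings tried.

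Ccr8, the receptor of CCL1 and, in the mouse, CCL8, was lowest of the 8 in every group but WT CD4. WT CD4 had 25 and 24 counts, DP 5 and 5, CD4hi 2 and 4, CD4lo 3 and 1, and WT CD8 0 and 1. Every other library was below both WT CD4 libraries. Scaled to library size, WT CD4 exceeded DP by a ratio of 5.14 (95% exact counting interval 2.57 to 11.4), CD4hi by 7.32 (3.13 to 20.9), CD4lo by 12.0 (4.40 to 45.8) and WT CD8 by 48.1 (8.24 to 1939). These intervals cover counting error only. Since Ccr8 was tested only because of its WT CD4 level, its fall against that group is given as a description with no test.

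Ccr7, the lymph node homing receptor of naive T cells, stayed abundant in every group. WT CD4 had 176 and 159.6 CPM, CD4lo 121 and 135, WT CD8 122 and 128, DP 120.2 and 116, and CD4hi 112 and 99.4. The WT CD4 libraries were the 2 highest of the 10. Ccr7 fell against WT CD4 by 0.67 in CD4hi (SE 0.09, edgeR adjusted p = 0.000106), 0.51 in DP (SE 0.09, 0.000856), 0.42 in WT CD8 (SE 0.09, 0.00302) and 0.39 in CD4lo (SE 0.09, 0.00636). The CD4lo call was lost without CD4lo 1 (0.109) and the WT CD8 call without WT CD8 1 (0.0541). No pair among the other 4 groups passed, except CD4lo over CD4hi when WT CD4 2 was left out (0.27, adjusted p = 0.0478).

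Cxcr4, the receptor of CXCL12, varied least. It had 102 and 97.1 CPM in WT CD4, 113 and 112 in CD4hi, 118 and 125 in DP, 119 and 133 in WT CD8, and 129 and 133 in CD4lo. The WT CD4 libraries were the lowest, and no neighbouring groups in this order differed by the test. Against WT CD4 the rise was 0.40 ± 0.08 in CD4lo (edgeR adjusted p = 0.00322), 0.34 ± 0.08 in WT CD8 (0.00665) and 0.29 ± 0.08 in DP (0.0201), and the value in CD4hi was 0.18 ± 0.08 (0.153). The DP call was lost without WT CD4 2 (0.0930), DP 1 (0.0709) or DP 2 (0.200) and with DESeq2 (0.0676). The WT CD8 call was lost without WT CD8 2 (0.118).

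Among the OB11 groups, 3 of the 8 receptor genes differed between DP and CD4hi, where 1.62% of all genes did. Ccr9 was higher in DP (0.763% of all genes were higher), and Ccr2 (-1.18 ± 0.25, edgeR adjusted p = 0.0246) and Ccr4 (-1.25 ± 0.20, 0.00380) were lower (0.861%). Without DP 2 only Ccr9 passed. The Ccr2 call was also lost without CD4hi 1 (0.0613) or CD4hi 2 (0.144). Between CD4lo and CD4hi 5 of 8 differed (7.03% of all genes), with Ccr2 (1.30 ± 0.21), Ccr9 (0.78 ± 0.11) and Cxcr6 (2.52 ± 0.19) higher (2.76%) and Ccr4 and Cxcr3 lower (4.27%). Between CD4lo and DP 5 of 8 differed (6.19% of all genes). Ccr2 (2.48 ± 0.23) and Cxcr6 (1.91 ± 0.18) were higher in CD4lo (2.55%), and Ccr4 (-0.97 ± 0.24), Ccr9 (-0.77 ± 0.10) and Cxcr3 were lower (3.64%). Without DP 2 the count was 3. The Ccr4 call (adjusted p = 0.0269) was lost when any of these 4 libraries was left out (0.0636 to 0.212) and with DESeq2 (0.196). Ccr7, Ccr8 and Cxcr4 passed in none of these 3 comparisons.

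Set against WT CD8 cells, DP cells had 2 of 8 receptor genes that differed, where 6.85% of all genes did. Ccr4 was higher by 3.74 ± 0.35 (4.57% of all genes were higher) and Cxcr6 lower (2.28%), and only Ccr4 passed without DP 1, DP 2 or WT CD8 1. CD4hi differed from WT CD8 in 4 of 8 (9.92% of all genes), with Ccr2 and Ccr4 (4.99 ± 0.32) higher (6.22%) and Ccr9 (-1.74 ± 0.11) and Cxcr6 (-1.34 ± 0.20) lower (3.69%). CD4lo differed in 4 of 8 (5.49% of all genes), with Ccr2, Ccr4 (2.78 ± 0.39) and Cxcr6 higher (3.41%) and Ccr9 (-0.95 ± 0.10) lower (2.08%). WT CD8 had 8 Ccr4 counts in all, which limits the size of these Ccr4 values.

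**Figure D3:**
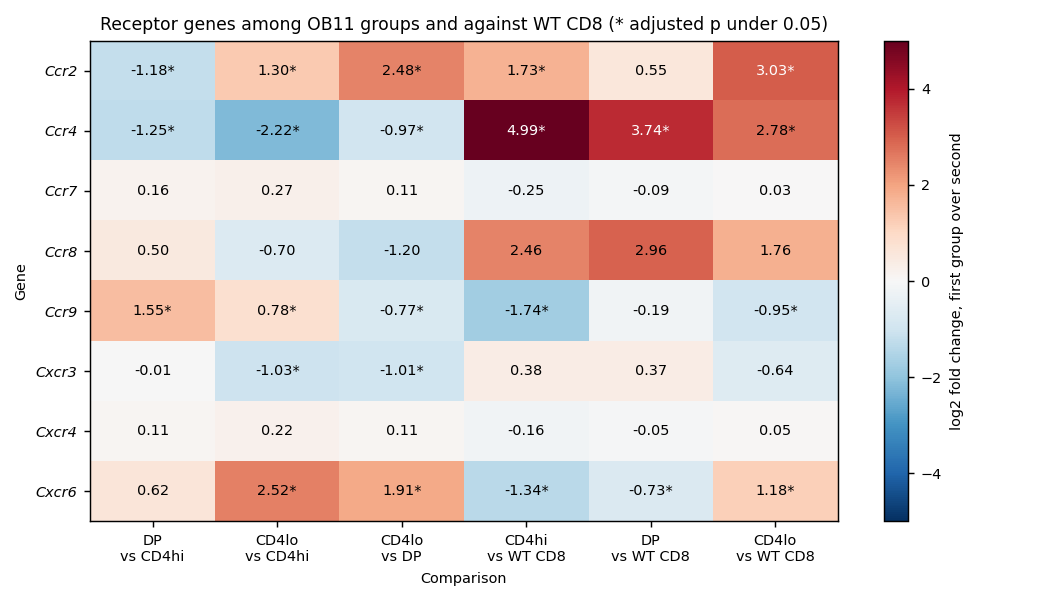
Log2 fold changes of the 8 receptor genes in the 6 comparisons without WT CD4, first group over second. Stars mark an edgeR adjusted p under 0.05. Ccr2 and Cxcr6 are higher in CD4lo than in CD4hi, DP and WT CD8, and the rows of Ccr7, Ccr8 and Cxcr4 hold no star.

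Levels of different genes were compared per kb of annotated exon sequence (GENCODE M21). On that scale Ccr7 led in WT CD4 with 84.8 ± 5.76 CPM per kb, 55.8% of the sum of the 8 genes, ahead of Cxcr4 with 55.0 ± 1.84 (36.3%). In the other 4 groups Cxcr4 came first, from 62.3 ± 0.516 CPM per kb in CD4hi to 72.4 ± 1.37 in CD4lo, and Ccr7 second. The 6 remaining genes were lower. Cxcr6 came next in CD4lo with 25.2 ± 0.445 CPM per kb (13.8% of the sum), Ccr9 in DP (11.2 ± 0.384) and WT CD8 (12.7 ± 0.730), and Cxcr3 in CD4hi (8.89 ± 0.436). In WT CD4, Ccr8 (3.31 ± 0.667) and Ccr4 (2.99 ± 0.658) were within their spread of each other. Ccr9 has 10260 annotated exon bases but a longest coding transcript of 5197, and with the latter it had 25.1 CPM per kb in WT CD8. The ranks named here were the same with either length. Some lower ranks were not, such as that of Ccr9 in CD4hi (6 per kb of exons and 4 per kb of the transcript).

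Of 15 other chemokine receptor genes in the table, 5 passed the filter. Against WT CD4, 2 were higher in CD4hi (10.4% of all genes) and 2 in DP (11.1%), and 1 was lower in CD4lo (7.02%). In WT CD8, Ccr6 (adjusted p = 0.0535) and Cxcr2 (0.0586) came nearest to the threshold. Ccr6, the receptor of CCL20, rose in CD4hi by 1.86 ± 0.21 (edgeR adjusted p = 1.86e-05) and in DP by 0.95 ± 0.22 (0.00638, lost without DP 2 at 0.0854), and was lower in CD4lo than in CD4hi by -1.54 ± 0.20. Cxcr5, the receptor of follicular helper cells for CXCL13, rose in CD4hi by 1.46 ± 0.18 (5.94e-05) and DP by 0.74 ± 0.19 (0.0134) and fell in CD4lo by 1.18 (SE 0.23, 0.00233). The DP call of Cxcr5 was lost without WT CD4 1 (0.0590) or DP 1 (0.0676). Ccrl2, Cxcr2 and Xcr1 passed in none of the 10 comparisons.

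Of 26 chemokine genes 9 passed the filter. Against WT CD4, 5 were higher in WT CD8 (11.1% of all genes), DP (11.1%) and CD4lo (8.82%) each and 4 in CD4hi (10.4%). None was lower (6.43% to 10.6% of all genes). Of the 9, 2 had 0 counts in WT CD4, so they passed the filter through other groups and could not be lower. The counts of higher genes and the medians include these 2, whose direction was fixed in advance, and so are a description only. The median change with genes at 0 counts set to 3 counts over the group was 1.81 (WT CD8), 2.80 (DP), 2.76 (CD4lo) and 1.56 (CD4hi). Ccl5, a chemokine of effector and memory T cells, had 4.76 ± 0.0524 CPM in WT CD4, 32.5 ± 3.85 in CD4hi, 49.1 ± 3.10 in WT CD8, 58.2 ± 0.546 in DP and 113 ± 8.51 in CD4lo, so it was highest in the group with the most Ccr2 and Cxcr6. The count in WT CD8 was 2 without WT CD4 1.

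Genes that carry or end the receptor signal went both ways. Of 31 tested, 9 passed in CD4hi against WT CD4 (4 higher, 5 lower; 16.8% of all genes passed), 9 in DP (3 and 6; 19.1%), 6 in CD4lo (2 and 4; 15.8%) and 10 in WT CD8 (1 and 9; 21.7%), with medians of 0.078, -0.0085, 0.015 and -0.12. Leaving out the library that mattered most brought these to 4 (WT CD4 1), 3 (DP 1), 3 (CD4lo 1) and 3 (WT CD4 1). Rgs1, which speeds the shutdown of G protein signals and limits chemotaxis, was highest in CD4hi, up by 0.86 ± 0.08 against WT CD4 (edgeR adjusted p = 3.58e-06), and lower by -0.88 ± 0.08 in DP and -0.63 ± 0.08 in CD4lo against CD4hi. In WT CD8 it was lower than in WT CD4 by -0.69 ± 0.09 (3.90e-05). Rgs16, a regulator of the same family chosen here after its values were seen, rose by 1.91 ± 0.27 in CD4hi (0.000191) and 1.91 ± 0.27 in DP (0.000151). Its change was -1.83 ± 0.41 in WT CD8 (0.00483) and -1.12 ± 0.37 in CD4lo (0.0534). Among 14 other receptors and adhesion molecules of migration, 8 passed in CD4hi (5 higher, 3 lower), 7 in DP (5 and 2), 6 in CD4lo (3 and 3) and 6 in WT CD8 (2 and 4), beside the same shares of all genes. The medians were 0.24, 0.12, 0.10 and -0.047, the last with the gene at 0 counts set to its bound. Without CD4hi 2 the CD4hi count was 4 and without CD4lo 1 the CD4lo count was 3. Itgae, the CD103 chain that binds E-cadherin of epithelia, rose by 2.54 ± 0.10 (CD4hi), 2.21 ± 0.10 (DP), 1.27 ± 0.10 (CD4lo) and 1.94 ± 0.10 (WT CD8).

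Markers of other cells moved with several of these receptors. The 10 regulatory T cell markers summed to 489 to 506 CPM in the WT CD4 libraries, 554 to 570 in CD4hi and 285 to 296 in DP. The sums were 142 to 144 in CD4lo and 65.4 to 74.1 in WT CD8. Ccr4 was likewise highest in CD4hi and lowest in WT CD8, but was alike in DP and WT CD4 (-0.09 ± 0.22). Ccr8 was also lowest in WT CD8 but highest in WT CD4, with 3.89 ± 0.783 CPM against 0.518 ± 0.226 in CD4hi. Against WT CD4, 3 of the 10 markers were higher (10.4% of all genes) and 2 lower (6.43%) in CD4hi. In DP 1 was higher (11.1%) and 8 lower (8.06%), and 8 were lower in CD4lo (7.02%) and 10 in WT CD8 (10.6%). Foxp3, the defining factor of regulatory T cells, had 80.7 ± 11.9 CPM in CD4hi and 78.8 ± 5.21 in WT CD4. All 6 gamma delta T cell markers were higher in CD4lo than in WT CD4, where 8.82% of all genes were higher. They summed to 135 to 136 CPM against 1.42 to 7.18 CPM in the libraries of the other groups. Markers so low elsewhere may have passed the filter on low counts through CD4lo alone, so this count is a description only. Ccr2 and Cxcr6 were highest in the same CD4lo libraries. NK cell markers (9 in the table) summed to 112 to 120.4 CPM in CD4lo, 68.5 to 71.4 in WT CD8, 48.0 to 53.8 in DP, 33.8 to 35.1 in CD4hi and 8.71 to 10.4 in WT CD4. Of 7 tested against WT CD4, 6 were higher in CD4lo (8.82% of all genes), 2 in CD4hi (10.4%) and 2 in DP (11.1%). In WT CD8 2 were higher (11.1%) and 2 lower (10.6%). Markers low in WT CD4 may have passed the filter through other groups alone. Klra8 and Klra4 were at 0 in CD4hi, DP and WT CD8, and Klrb1c in WT CD8. The part of these cells in the receptor values was not tested.

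Monocyte and macrophage markers (12 in the table) summed to 154 to 164 CPM in DP, 42.4 to 46.5 in CD4hi, 42.1 to 42.3 in WT CD8, 35.5 to 40.1 in CD4lo and 16.5 to 23.6 in WT CD4. Of 9 tested, 7 were higher in DP than in WT CD4 (11.1% of all genes), 3 in CD4hi (10.4%), 3 in WT CD8 (11.1%) and 1 in CD4lo (8.82%). None was lower. Markers low in WT CD4 may have passed the filter through other groups alone. Ccr2 had 8.76 ± 2.01 CPM in DP and 48.4 ± 8.90 in CD4lo. Cd14 was at 0 in CD4hi and Fcgr1 in CD4lo. The 11 B cell markers summed to 242 to 327 CPM in WT CD4, CD4hi and CD4lo, 483 to 540.1 in DP and 589 to 617 in WT CD8. Against WT CD4, 8 were higher in DP (11.1% of all genes), 10 in WT CD8 (11.1%) and 1 in CD4hi (10.4%), and 1 was lower in CD4lo (7.02%). Ccr9 was also highest in DP and WT CD8. The part of monocytes, macrophages and B cells in the receptor values was not tested. Memory and activation markers (10) summed to 404 to 419 CPM in WT CD4 and 601 to 845 in all other libraries. Against WT CD4, 8 were higher and 1 lower in CD4hi (10.4% and 6.43% of all genes), and 7 and 1 in DP (11.1% and 8.06%). The counts were 8 and 0 in CD4lo (8.82% and 7.02%), and 4 and 3 in WT CD8 (11.1% and 10.6%). The 6 NKT and innate-like markers summed to 97.5 to 98.3 CPM in WT CD4, 119 to 121 in WT CD8 and 149 to 174 in the OB11 libraries. Of 5 tested against WT CD4, CD4hi had 2 higher and 0 lower, and DP 2 and 1. CD4lo had 3 and 0, and WT CD8 2 and 2, beside the same shares of all genes. Slamf6, the most abundant of the 5, rose in each group, by 0.27 to 0.91. Zbtb16 rose for CD4lo alone (2.69 ± 0.44). It was lower for WT CD8 (-2.56 ± 0.73) and DP (-2.66 ± 0.72), and its -1.89 ± 0.67 for CD4hi did not pass. The 7 dendritic cell markers stayed between 5.33 and 15.4 CPM in all libraries. Naive T cell markers (9, Ccr7 among them) summed to 3743 to 4529 CPM.

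**Figure D4:**
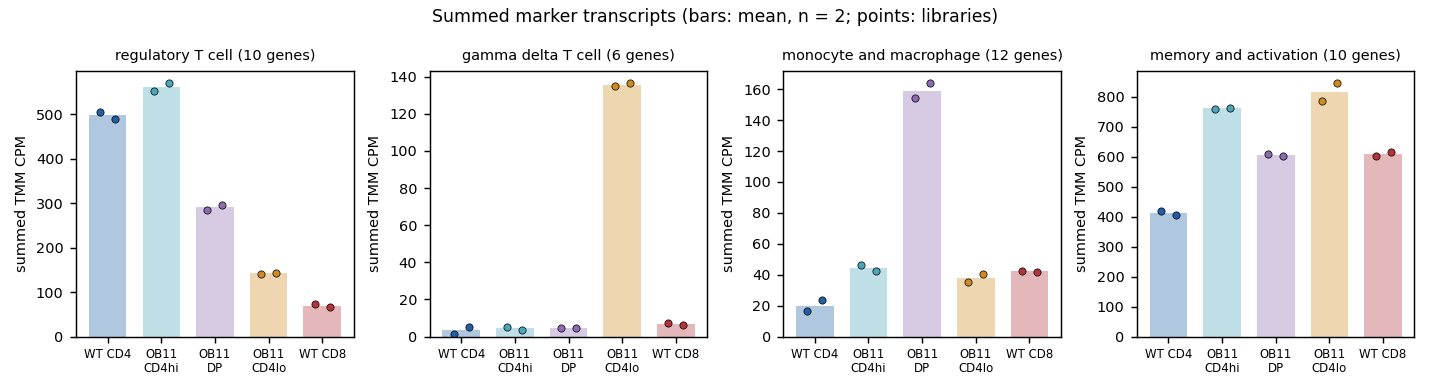
Summed levels (TMM CPM, axes from 0) of 4 marker lists in each library (points) with group means (bars, n = 2). Gamma delta markers reach 135 and 136 CPM in the CD4lo libraries, monocyte and macrophage markers 154 and 164 CPM in DP, and regulatory T cell markers are lowest in WT CD8.

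The genes whose log2 CPM ran most like each receptor over the 10 libraries were named by Pearson's r as a description. These points form 5 groups, the genes share libraries and depth, and 7439 genes were compared. A high r does not mean a change of like size. Gak, for example, had 148 CPM in WT CD4 and 165 in WT CD8, where Ccr9 had 10.0 and 130. Itgae was nearest to Cxcr3 (r = 0.986), followed by Notch1 (0.978) and Arpc1b (0.967). Dock5 (0.967), Il18rap (0.962) and Klrk1 (0.961) were nearest to Cxcr6, and Aqp3 (0.928), Kif1b (0.927) and Il12rb1 (0.919) to Ccr2. Ccr4 ran with Stk39 (0.992), Prdm1 (0.992) and Nav2 (0.984), and Ccr8 with Actn4 (0.972), Rsu1 (0.969) and Mical3 (0.968). Ccr9 ran with Gak (0.979), Ttc7 (0.976) and Chst11 (0.973), Ccr7 with Gpatch4 (0.973), Ifngr2 (0.970) and Hsd11b1 (0.963), and Cxcr4 with Klrk1 (0.955), Mppe1 (0.952) and D4Wsu53e (0.951).

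Ccr2, Ccr4, Ccr8, Ccr9 and Cxcr6 lie on mouse chromosome 9, and Ccr9, Cxcr6 and Ccr2 share one cluster of receptor genes (build GRCm38). Ccr9 spans chr9:123678439-123784330, Cxcr6 chr9:123806475-123811760 and Ccr2 chr9:124101950-124113557, all protein-coding on the plus strand. Ccr4 lies at chr9:114490316-114504916 (minus strand) and Ccr8 at chr9:120092114-120094906 (plus strand). Ccr7 lies at chr11:99144196-99155077, Cxcr3 at chrX:101731535-101734269 and Cxcr4 at chr1:128588199-128592293, all on the minus strand. From 500 kb before Ccr9 to 500 kb after Ccr2, values of 7 tested genes other than the members were examined. Limd1, an adaptor protein gene, rose against WT CD4 by 0.47 ± 0.09 (CD4hi), 0.42 ± 0.09 (DP), 0.57 ± 0.09 (CD4lo) and 0.60 ± 0.09 (WT CD8), though not without DP 2 in DP (adjusted p = 0.0700). Lztfl1, within the span of Ccr9 on the opposite strand, rose in DP (0.94 ± 0.16, edgeR adjusted p = 0.000653), WT CD8 (0.91 ± 0.16, 0.000724) and CD4hi (0.64 ± 0.16, 0.0148), with 0.42 ± 0.16 in CD4lo (0.105), and the CD4hi call was lost without WT CD4 2 (0.0637) or CD4hi 2 (0.143) and with DESeq2 (0.118). Lars2 was lower in WT CD8 (-0.82 ± 0.08, 3.43e-06), CD4hi (-0.34 ± 0.08, 0.00895) and DP (-0.29 ± 0.08, 0.0211), with -0.13 ± 0.08 in CD4lo (0.290). The CD4hi call of Lars2 was lost without WT CD4 2 (0.0722, with a change of -0.22) and with DESeq2 (0.0550), and the DP call without WT CD4 2 (0.177, with a change of -0.17), DP 1 (0.110) or DP 2 (0.106) and with DESeq2 (0.125). Fyco1, whose intron holds Cxcr6 on the opposite strand with 0 shared exon bases, had changes of -0.18 ± 0.09 (CD4hi), 0.11 ± 0.09 (DP), 0.17 ± 0.09 (CD4lo) and 0.38 ± 0.09 (WT CD8). Of these only the last passed (edgeR adjusted p = 0.00729), and the part of Fyco1 reads in the Cxcr6 counts was not tested. The strand setting of the counting is not stated. Of the Ccr9 exon bases 18.8% lie opposite AC165425.1, whose reads could not be told apart from Ccr9 without strand. Of 50-base windows of the longest coding transcript, 2.27% in Ccr2, 1.60% in Ccr4 and 0.214% in Ccr9 recur in other genes, and none do in the other 5 members.

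**Figure D5:**
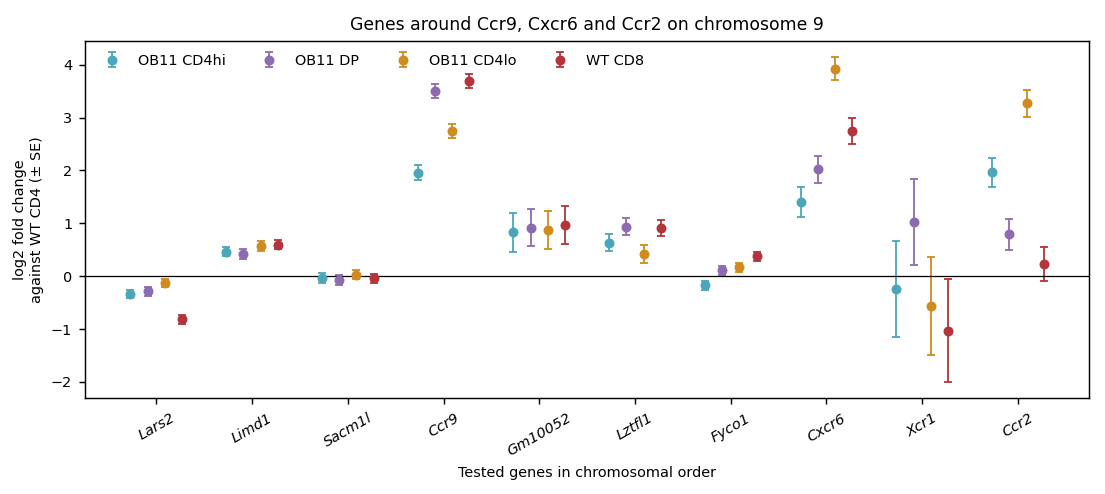
Log2 fold change (± SE) against WT CD4 of the tested genes examined around Ccr9, Cxcr6 and Ccr2, in chromosomal order. The 3 receptors reach 2.74 to 3.93 in CD4lo, Lztfl1 reaches 0.94 in DP, Lars2 is at -0.82 in WT CD8, and Sacm1l and Fyco1 lie between -0.18 and 0.38 in all 4 groups.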

How the data were processed

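RNA sequencing counts of 10 libraries, 2 in each of 5 sorted groups, were analysed. Per the labels' protocols, libraries were strand-aware, from 10 ng of RNA, and ribosomal cDNA was removed. The values are whole-number counts by symbol, deposited by the authors, and the submitters' processing notes name TopHat2, HTSeq and mm10. Versions, annotation and strand setting are not given in the sources used here. Groups and replicate numbers came from the sample titles, and every column matched 1 sample.

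Software was edgeR 4.0.16 with DESeq2 1.42.0 for comparison, in R 4.3.3 with limma 3.58.1. Genes were kept by filterByExpr (12193 of 34573, holding 99.7% of counts) and scaled by TMM. All libraries entered 1 quasi-likelihood fit by group with 5 residual degrees of freedom. The F test was two-sided, adjusted by Benjamini-Hochberg over all tested genes, and SE is the size of the change divided by the root of F. With 2 libraries against 2, the smallest exact permutation p is 0.333, and no such test was used. The libraries of a group differed beyond counting error (mean chi-square per gene 3.48 to 15.1, where counting alone gives about 1).

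The receptor genes and gene lists were chosen with earlier results of these data known. The receptor genes are all given. Genes of like pattern are the 3 with the highest r where the mean log2 CPM reached 3, leaving aside mitochondrial and ribosomal genes, receptor segments and predicted models. Examples from the pathway lists are among the 3 called genes with the largest change in a comparison, and other tested chemokine receptors may be named. Some listed genes are not reported here and were left out of the lists. Alternatives left out each library, added the title number as a block, used DESeq2 or its size factors, dropped the filter, fitted 4 libraries, or left out AC087541.1 (11.1% to 16.4% of counts) and mitochondrial genes. Promoters are RefSeq's, with the first listed start of a gene.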

Additional observations from a re-analysis of the deposited data

How the results depend on the processing

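Of 800 log2 fold changes of receptor genes with 1 library left out, 745 kept their direction and side of the threshold, 44 lost and 2 gained a call, and 9 changed direction. Under the other settings 458 of 473 stayed, 13 lost and 1 gained a call, and 1 changed direction. No called value changed direction. The cause of these shifts was not tested. The directions that changed were those of Ccr2 in WT CD8 against WT CD4 (-0.36 without WT CD8 2, range -0.36 to 0.61) and Ccr4 in DP against WT CD4 (0.17 without WT CD4 2, range -0.27 to 0.17). Cxcr3 in DP against CD4hi ranged from -0.16 to 0.15 (0.080 without CD4hi 2, 0.15 without DP 1, 0.0046 without CD4lo 2) and was 0.015 with no filter. Against WT CD8, Cxcr4 in DP ranged from -0.14 to 0.023 (the latter without WT CD8 2), Ccr7 in CD4lo from -0.057 (without CD4lo 2) to 0.11, with -0.0077 without WT CD8 1, and Cxcr4 in CD4lo from -0.024 (without WT CD8 1) to 0.14.

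With 1 library left out, receptor genes called, Ccr8 included, ran from 6 to 7 (WT CD8 against WT CD4, main 7), 6 to 6 (CD4hi, main 7), 4 to 6 (DP, main 6) and 4 to 8 (CD4lo, main 8). They ran from 1 to 3 (DP against CD4hi, main 3), 5 to 6 (CD4lo against CD4hi, main 5) and 3 to 5 (CD4lo against DP, main 5). Against WT CD8 they were 4 to 4 (CD4hi and CD4lo, main 4 each) and 1 to 2 (DP, main 2, and 1 with DESeq2). All genes called ran from 1411 to 2654 (WT CD8 against WT CD4, main 2651, DESeq2 1758), 1193 to 1998 (CD4hi, main 2048, DESeq2 1287, 4 libraries alone 1202), 1254 to 2312 (DP, main 2332, DESeq2 1458) and 1239 to 1948 (CD4lo, main 1931, DESeq2 1270). They ran from 69 to 260.0 (DP against CD4hi, main 198, DESeq2 131, no filter 345), 507 to 1088 (CD4lo against CD4hi, main 857) and 371 to 949 (CD4lo against DP, main 755). Against WT CD8 the ranges were 600 to 1434 (CD4hi, main 1209), 312 to 1021 (DP, main 835, DESeq2 502, 4 libraries alone 1351) and 353 to 857 (CD4lo, main 670). The Ccr9 level in WT CD8 was 12.7 CPM per kb of exons and 25.1 per kb of its longest coding transcript, an alternative chosen after seeing the data, as were those of the list counts.

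The title numbers were not shown to pair libraries (correlation of deviations -0.55 to 0.13 between groups). With the number as a replicate block, the genes called against WT CD4 numbered 2417 (WT CD8), 1885 (CD4hi), 2088 (DP) and 1703 (CD4lo), and of the receptor genes Ccr8 in DP against WT CD4 (adjusted p = 0.0744) and Ccr2 in DP against CD4hi (0.0536) lost their calls. Ccr8, with at most 10 counts in any group but WT CD4, is limited by depth.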
